A study of Mus musculus with 19 samples.

Results

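Chromosome 15 (Chr15) was profiled by array comparative genomic hybridization (aCGH) with all 9174 probes that the array files place on it, of 221455 probes on the 19 autosomes and 234364 probes with a position. The probes run from 3091692 to 103485071 on chr15 of mm9, at a median spacing of 7801 bp, and were joined into 21 fixed bins of 5 Mb that held 204 to 754 probes each. The rule for a member used its position and no measured value. The study deleted the spindle assembly checkpoint gene Mad2l1 in mouse hepatocytes and compared the DNA of the liver tumors that arose with unaffected liver of the same mice. The question for Chr15 was whether its gain was even over the whole chromosome or peaked in some part of it.

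All 9 mice were of a C57BL/6.129 background, carried Mad2l1 f/f, and expressed Cre recombinase from Alb-Cre, which is active in developing hepatocytes. The 4 hepatocellular adenomas (HCA) came from 4 female mice with floxed Trp53: mouse 2430 (f/f, 16.9 months), mouse 5884 (f/+, 14.2 months), mouse 5901 (f/+, 12 months) and mouse 6199 (f/f, 12 months). The 6 hepatocellular carcinomas (HCC) came from 5 mice with the Trp53 R246S allele. These were female mouse 6240 (16.2 months), which gave tumors 4 and 2, female mouse 6602 (13.2 months), and males 6487 (12.8 months), 6565 (14.7 months) and 6642 (12.3 months). Each of the 9 mice also gave 1 unaffected liver (n = 9), so the unaffected livers carried the same alleles as the tumors and were tumor-bearing organs. Wild type liver DNA of the opposite sex was the reference on every array. Tumor grade and Trp53 allele went together, so a difference between HCA and HCC cannot be told apart from one between floxed Trp53 and R246S. The label check of the deleted genes themselves was not analysed here, because the files do not pair probes with genes.

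Mad2l1 encodes a protein of the spindle assembly checkpoint, which holds cells in mitosis until every chromosome is attached to the spindle. Cells without it missegregate whole chromosomes, and a gain of a whole chromosome raises the dose of all its genes at once. Mouse Chr15 has its centromere at the proximal end. RefSeq lists 776 protein-coding genes on it in GRCm38.p6, among them, from the centromere outwards, the growth hormone receptor Ghr, the mTORC2 subunit Rictor, the cytokine receptor Lifr, the cohesin subunit Rad21, the squalene epoxidase Sqle, the proto-oncogene Myc, the focal adhesion kinase gene Ptk2, the nuclear receptor Ppara and the hepatocyte keratins Krt8 and Krt18. The genes named here are from a list of 36 regulators and liver genes that were picked as Chr15 genes. All 36 are on Chr15 in that assembly, as that choice implies. A rise of the whole chromosome would therefore span receptors, kinases and transcription factors from end to end, whereas a focal gain around 1 gene would raise only neighbouring bins. Because the arrays are on mm9, no gene was assigned to a bin, and no value is given for a single gene.

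Values are log2 ratios of sample over reference, centred so that the median autosomal probe of an array is 0. On this scale, 3 copies in place of 2 in every cell give 0.585. The X chromosome gave a check of the scale, since sample and reference differed in sex: the X ratio of the 9 livers lay between 0.885 and 1.04 in females and between −1.02 and −0.902 in males, near the value of 1 in size that a single against a double copy gives. The HCC of mouse 6240 labeled tumor 2 stood apart with an X ratio of 0.322 against 1.04 in its own liver, and X ratios of tumors were therefore not used as a scale for single tumors. Arrays were scanned on 3 days. Both day 1 tumors were HCA and all 5 day 3 tumors were HCC. In every array at least 98.8% of the Chr15 spots had signal well above background in Cy5 and Cy3, and the median Chr15 signal was 1.85 to 5.06 times background in Cy5. Precision is limited at least by how many arrays there are, and whether the signal height also bears on it was not tested.

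On the deposited ratios, Chr15 was gained in all 4 HCAs and in 3 of the 6 HCCs. A tumor is called gained here where its Chr15 mean ratio was above 0.25, a limit set after the values were seen, which lies between 0.261 and the next lower value of 0.116. The Chr15 mean ratio was 0.447 in the HCA of mouse 2430, 0.389 in that of mouse 5884, 0.463 in that of mouse 5901 and 0.261 in that of mouse 6199. Every HCA lay above every unaffected liver, whose values ran from −0.027 to 0.071 with a median of 0.019. The HCA mean was 0.390 ± 0.092 (SD, n = 4) against 0.024 ± 0.033 (SD, n = 9) in liver. The difference of 0.37 was larger than the spread between replicates (exact two-sided permutation test, p = 0.0014, the smallest that these groups allow, adjusted p over the 19 autosomes 0.0044). In that comparison 78.9% of the autosomes passed the same test and 31.6% had every HCA on one side of every liver, so passing was common. The difference of Chr15 was the largest of the 19 in either direction, followed by the loss of Chr3 with −0.26 and, among gains, by Chr1 with 0.19.

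**Figure D1:**
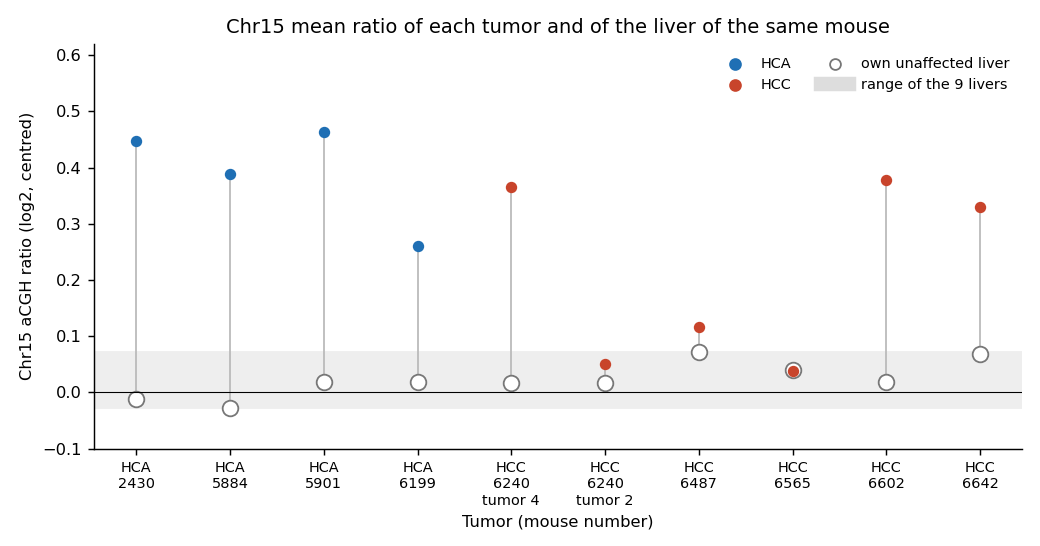
Chr15 mean aCGH ratio (log2, centred) of each tumor (filled circles, blue for HCA, red for HCC) and of the unaffected liver of the same mouse (open circles), joined by a line; the grey band spans the 9 livers, −0.027 to 0.071. The 4 HCAs and 3 HCCs sit at 0.261 or higher, and the other 3 HCCs sit between 0.038 and 0.116.

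In the HCCs the values fell far apart. The Chr15 mean ratio was 0.365 in tumor 4 of mouse 6240, 0.378 in the HCC of mouse 6602 and 0.331 in that of mouse 6642. It was 0.116 in mouse 6487, 0.051 in tumor 2 of mouse 6240 and 0.038 in mouse 6565. The last 2 values lie within the range of the livers, and that of mouse 6487 lies above it. Mouse 6240 therefore carried 1 tumor with a Chr15 gain and 1 without, in the same liver, whose own ratio was 0.017. The HCC mean was 0.213 ± 0.161 (SD, n = 6) and exceeded liver by 0.19 (exact two-sided permutation test, p = 0.0024, adjusted p = 0.011, with 31.6% of the autosomes passing). Chr15 ranked second among gains here, after Chr16 with 0.20, and held rank 4 when losses were counted by their size, with Chr13 first at −0.22. The call for HCC was lost with the mouse as a block (0.17, limma adjusted p = 0.064), in female mice alone (0.26, exact permutation adjusted p = 0.090) and with normexp background correction (0.13, exact permutation adjusted p = 0.065). In female mice the difference was larger, and its unadjusted exact permutation p of 0.012 was the smallest that 3 HCCs and 6 livers allow. HCC lay 0.18 below HCA, which did not pass (exact permutation p = 0.086, adjusted p = 0.23) except with limma without a block (adjusted p = 0.036) and with the Tukey comparison (p = 0.012), and 3 of the 6 HCCs lay below every HCA.

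The gain stood out within single tumors as well as between groups. Chr15 had the highest ratio of the 19 autosomes in the HCAs of mice 5901 and 6199, in tumor 4 of mouse 6240 and in the HCC of mouse 6642, and the second highest in the HCAs of mice 2430 and 5884 and in the HCC of mouse 6602. The autosomes above it were Chr1 in mouse 2430 (0.521), Chr16 in mouse 5884 (0.451) and Chr16 in mouse 6602 (0.631). In the remaining 3 HCCs, Chr15 held rank 3 or 4 with values up to 0.116, and by the difference from the own liver it held rank 7 in tumor 2 of mouse 6240, 8 in mouse 6487 and 7 in mouse 6565. The livers of mice 6487 and 6565 themselves had Chr15 at rank 1 and 3.

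Set against the liver of the same mouse, the gain differed in height from tumor to tumor. The difference between tumor and own liver was 0.459, 0.416, 0.444 and 0.243 in the HCAs of mice 2430, 5884, 5901 and 6199. It was 0.348 in tumor 4 of mouse 6240, 0.358 in mouse 6602 and 0.262 in mouse 6642. It was 0.034 in tumor 2 of mouse 6240, 0.044 in mouse 6487 and −0.0023 in mouse 6565. The mean was 0.391 ± 0.10 (SD, n = 4) in HCA and 0.171 ± 0.150 (SD, n = 5 mice, the pair from mouse 6240 averaged) in HCC. All 4 HCAs were above their own liver, but 4 mice cannot reach a two-sided p under 0.125, which was the value obtained (exact sign-flip test). For HCC the exact sign-flip test gave p = 0.125, where 5 mice allow 0.0625.

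If the median autosome stands for 2 copies, the differences of the 7 gained tumors correspond to 2.37 to 2.75 copies of Chr15 per cell on average. Mouse 6199, an HCA, had the lowest of these with 2.37 copies and mouse 2430 the highest with 2.75, while the 3 HCCs lay between, at 2.40, 2.55 and 2.56. All 7 were below the 3 copies that a single extra chromosome would give in every cell with 2 copies of the other autosomes. Ratios centred on the array median do not measure ploidy, and the paper describes hepatocytes as normally polyploid. After division by the X ratio of the own liver the 7 values were 2.39 to 2.85. The values depended on the background correction: they were 2.23 to 2.41 copies without it and 2.02 to 2.55 with normexp. With normexp the HCC of mouse 6642 differed from its liver by 0.014 and the HCA of mouse 5884 by 0.126, against 0.262 and 0.416 on the processed signals. The HCC of mouse 6565, not called gained, differed from its liver by 0.103 with normexp. The order of the HCCs of mice 6642 and 6565 was thus reversed, and the split into gained and not gained HCCs depended on the background correction. In bulk DNA, fewer cells with an extra Chr15 and fewer extra copies per cell cannot be told apart, and tumor samples also hold DNA of other cells.

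By Trp53 genotype and by sex the subsets held too few tumors for a test. The 2 HCAs with Trp53 f/f had a mean Chr15 ratio of 0.354 and the 2 with f/+ had 0.426. The 3 female HCCs ranged from 0.051 to 0.378 and the 3 male HCCs from 0.038 to 0.331, so gained and not gained tumors occurred in both sexes. The unaffected livers of the 3 males were at 0.041 to 0.071, above those of the 6 females at −0.027 to 0.019, without overlap, as was the case for 21.1% of the autosomes. Within scan day 1, HCA exceeded liver by 0.425 (2 against 3 arrays, exact permutation p = 0.10, the smallest possible), and within scan day 3, HCC exceeded liver by 0.196 (5 against 4 arrays, exact permutation p = 0.087, smallest possible 0.0079). Within scan day 2 the difference was 0.317 for HCA (2 against 2 arrays) and 0.071 for the 1 HCC. With the scan day as a block, the Chr15 call stood for HCA and for HCC.

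Along the chromosome, every one of the 21 bins was raised in HCA. The difference between HCA and liver ran from 0.29 to 0.41 over the bins with a median of 0.38 (standard errors 0.057 to 0.072), and all 21 bins passed (limma, adjusted p from 4e-05 to 0.0020). Among all 502 autosomal bins, 18.7% passed as higher in HCA, and the median difference was 0.023. In each of the 21 bins, all 4 HCAs lay above all 9 livers, against 10.8% of all bins. The first bin, nearest the centromere, differed by 0.33 ± 0.061 (SE) and the last by 0.36 ± 0.059 (SE), so both ends took part.

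In HCC, all 21 bins also passed as higher than liver. The differences ran from 0.16 to 0.24 (standard errors 0.050 to 0.063, limma, adjusted p from 0.0076 to 0.027), and 4.58% of all bins passed as higher in HCC. In every bin, tumor 4 of mouse 6240 and the HCCs of mice 6602 and 6642 lay above all 9 livers. Of the other HCCs, mouse 6487 did so in 16 bins, tumor 2 of mouse 6240 in 3 and mouse 6565 in 0. The count was 13 without tumor 4 of mouse 6240, 13 without mouse 6602, 10 without mouse 6642, 3 with the mouse as a block, 11 with the scan day as a block, 0 in female mice alone and 0 with normexp background correction. With the mouse as a block, 99 of all 502 bins passed in either direction. No share of all bins is given for the other settings. HCC was lower than HCA in 13 of the 21 bins (11.4% of all bins passed as lower), a count that fell to 0 with the mouse as a block, with only HCA and HCC in the fit, without the HCA of mouse 2430 or without that of mouse 5901. It was 8 without the HCA of mouse 5884, 1 without tumor 2 of mouse 6240, 2 without the HCC of mouse 6487 and 1 without that of mouse 6565. With the mouse as a block, 0 of all 502 bins passed between HCC and HCA.

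**Figure D2:**
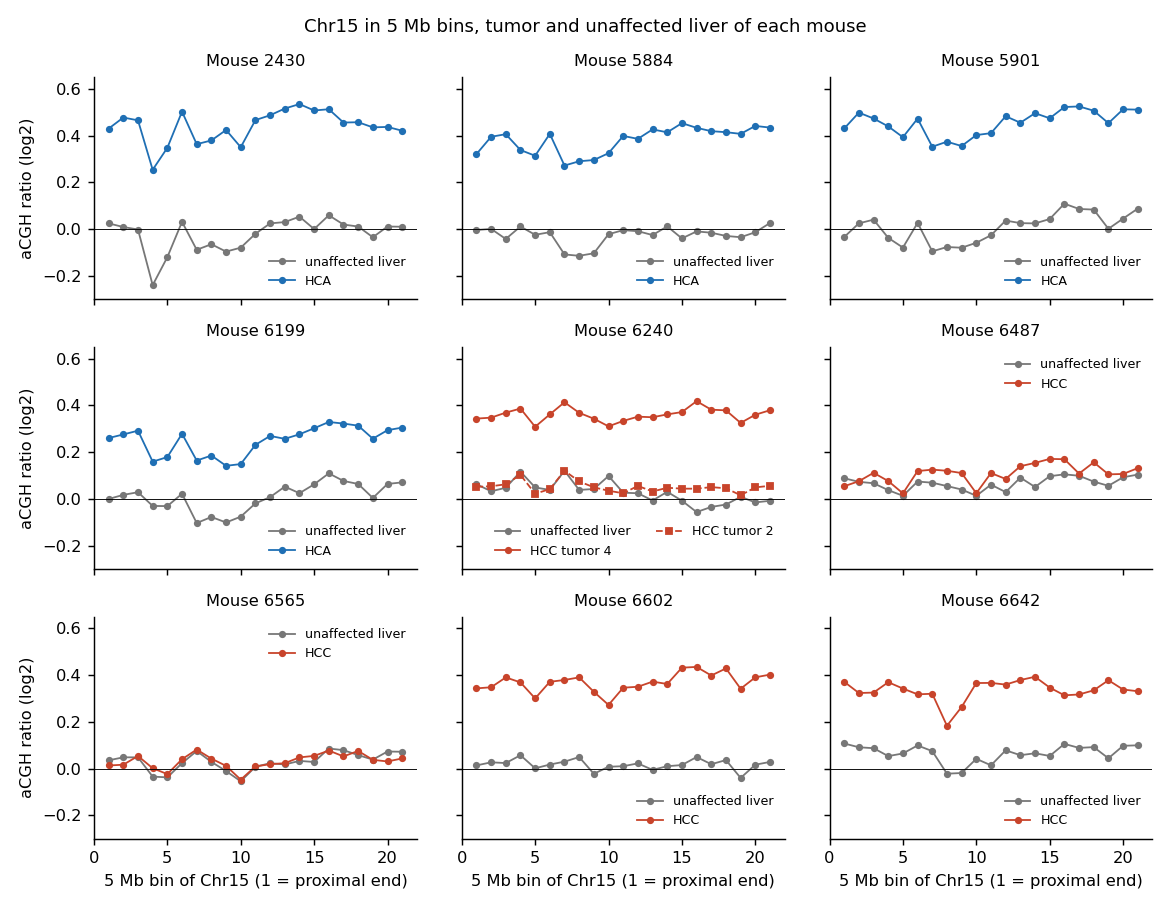
Mean aCGH ratio (log2) of each of the 21 bins of 5 Mb of Chr15, numbered from the proximal end, in the tumors (blue for HCA, red for HCC) and the unaffected liver (grey) of each of the 9 mice. In mouse 2430 the tumor and its liver both dip in bin 4 (0.254 and −0.240), whereas in mouse 6240 bin 16 is the highest of tumor 4 (0.418) and the lowest of its liver (−0.056).

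The tumor profiles were not flat when read alone, and some of their shape was also present in livers. In the HCA of mouse 2430 the lowest bin was that from 15 to 20 Mb, at 0.254 against a highest bin of 0.535. The unaffected liver of mouse 2430 was at −0.240 in that bin, its own lowest, and the difference between tumor and liver there was 0.49. Across the 21 bins the correlation between HCA and own liver was 0.91, 0.60, 0.95 and 0.94 in mice 2430, 5884, 5901 and 6199. The median correlation of the same HCAs with the livers of other mice was 0.38, 0.54, 0.61 and 0.70. Those other livers pooled floxed Trp53 and R246S. Livers with floxed Trp53 correlated with each other at 0.29 to 0.95, with a median of 0.65 over 6 pairs. A high correlation with the own liver need not be particular to the mouse. In the HCCs the correlation with the own liver ranged from −0.19 in tumor 4 of mouse 6240, with 0.37 for other livers, to 0.85 in mouse 6565, with 0.38. In mouse 6602 it was 0.51, with 0.52 for other livers. In tumor 2 of mouse 6240 and the HCCs of mice 6487 and 6642 it was 0.53, 0.64 and 0.42, with −0.12, 0.33 and 0.090 for other livers. These correlations describe 21 bins of the same probes with the same base composition, and tumor and liver share the DNA of 1 mouse and, except in mouse 5901, a scan day.

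Some bins set the livers of the HCA mice apart from those of the HCC mice. In the bin from 30 to 35 Mb the 4 livers with floxed Trp53 were at −0.108 to −0.089 and the 5 livers with R246S at 0.030 to 0.12. These livers did not overlap in 5 of the 21 bins, those from 5 to 10, 30 to 35, 35 to 40, 40 to 45 and 50 to 55 Mb, against 6.77% of all bins. The tumors carried the same offset: the HCAs averaged 0.288 in this bin, against 0.390 for the chromosome, and the HCCs 0.240, against 0.213. This bin was chosen after its values were seen. Against the own liver the bin stood at 0.39 with an SD of 0.086 in the 4 HCAs, and at 0.16 with an SD of 0.16 in the 6 HCCs, within 0.02 of the chromosome mean in each.

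Subtracting the own liver left differences between bins that varied from tumor to tumor. The lowest and highest bin were 0.405 and 0.520 in mouse 2430, 0.325 and 0.49 in mouse 5884, 0.413 and 0.477 in mouse 5901, and 0.190 and 0.267 in mouse 6199. In the gained HCCs they were 0.212 and 0.474 in tumor 4 of mouse 6240, 0.264 and 0.416 in mouse 6602, and 0.205 and 0.353 in mouse 6642. The lowest bin of these 7 tumors, which were picked by their Chr15 mean, was thus 0.190 above the own liver. Tumor 4 of mouse 6240 was less even after the subtraction than before it, with an SD of its bins of 0.059 against 0.029. The 3 other HCCs had no gained stretch of this height: their highest bins were 0.10 in tumor 2 of mouse 6240, 0.103 in mouse 6487 and 0.036 in mouse 6565, and their lowest were −0.063, −0.034 and −0.043.

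**Figure D3:**
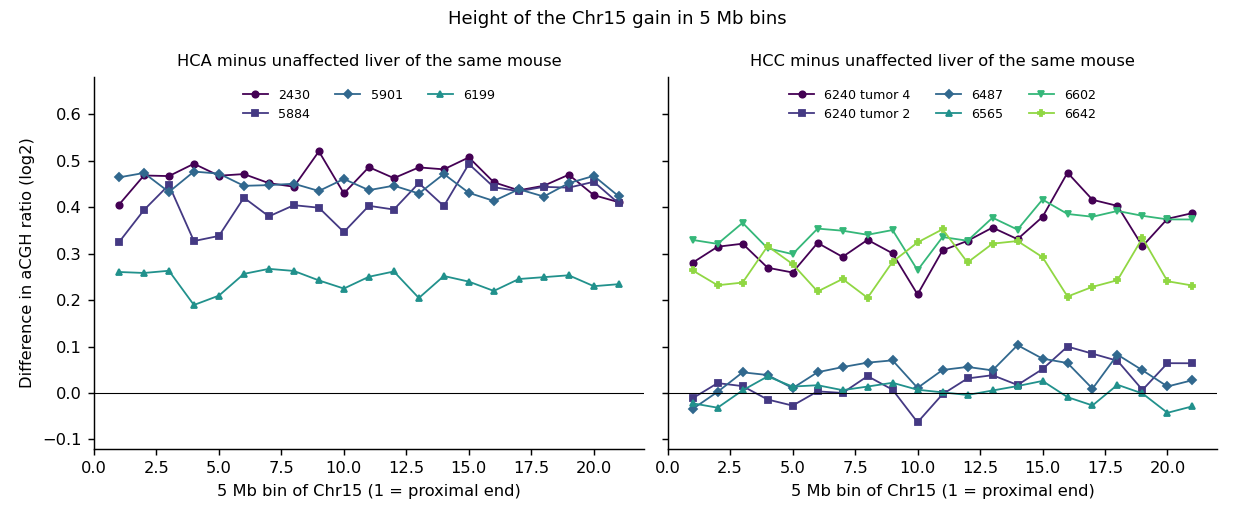
Difference in aCGH ratio (log2) between each tumor and the unaffected liver of its own mouse in the 21 bins of Chr15, numbered from the proximal end, for 4 HCAs (left) and 6 HCCs (right). No bin of the 7 gained tumors falls under 0.190, and no bin of the other 3 HCCs exceeds 0.103.

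By the mean difference from the own liver, the highest bin was the same in both tumor types and the lowest was not. The bin from 70 to 75 Mb was highest: the 4 HCAs averaged 0.42 with an SD of 0.12, and the 6 HCCs averaged 0.21 with an SD of 0.18. The lowest was the first bin in HCA, with 0.36 ± 0.089, and the bin from 45 to 50 Mb in HCC, with 0.13 ± 0.16. The last bin was at 0.37 ± 0.090 in HCA and 0.18 ± 0.18 in HCC. Among single tumors, the bin from 70 to 75 Mb was the highest only in the HCA of mouse 5884 and the HCC of mouse 6602. The highest bin began at 40, 15 and 30 Mb in the HCAs of mice 2430, 5901 and 6199. It began at 65, 15 and 50 Mb in the HCCs of mice 6487, 6565 and 6642, and at 75 Mb in tumors 4 and 2 of mouse 6240, which share a liver.

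In the group means, no bin of Chr15 departed from the rest of the chromosome in the tumors beyond the replicate spread. The HCC mean includes the 3 HCCs not called gained, so a peak confined to the gained HCCs would be averaged down. Each bin was compared with the mean of the other 20 bins of its array, and the result with that of the livers. Of the 21 bins, 0 passed in HCA and 0 in HCC (limma, smallest adjusted p 0.73 and 0.22), as was the case for 0.0% of all 502 bins in both comparisons. At an unadjusted p under 0.05, 2 bins stood out in HCA and 1 in HCC, next to 4.98% and 4.78% of all bins. An exact permutation test per bin also called 0 after adjustment, with 1 bin in each at an unadjusted p under 0.05. The estimates ran from −0.074 to 0.047 in HCA and from −0.033 to 0.056 in HCC. Taken over all 21 bins, the 95% intervals reached from −0.147 to 0.083 in HCA and from −0.066 to 0.113 in HCC. Their widths differed between bins. In HCA the interval was −0.0052 to 0.034 from 5 to 10 Mb and −0.147 to 0.028 from 15 to 20 Mb. A peak or dip of a size within the interval of its own bin remains possible. The highest bin, from 70 to 75 Mb, exceeded the rest by 0.047 ± 0.017 (SE) in HCA (limma, adjusted p = 0.73) and by 0.019 ± 0.015 (SE) in HCC (limma, adjusted p = 0.90). With the mouse as a block the values were 0.030 ± 0.016 (SE) in HCA and 0.038 ± 0.014 (SE) in HCC (limma, adjusted p = 0.996 and 0.60). In that fit 0 bins of HCA and 3 of HCC had an unadjusted p under 0.05, and 0 passed. No share of all bins is given for these unadjusted counts.

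Between HCC and HCA, 0 of the 21 bins passed either, with 7 bins at an unadjusted p under 0.05 against 9.36% of all bins (limma). The exact permutation test per bin called 0, with 8 at an unadjusted p under 0.05, for which no share of all bins is given. By limma 1 bin passed without the liver of mouse 2430, without that of mouse 6199 or without the HCA of mouse 5884, and 2 without the liver of mouse 6240. The bin from 5 to 10 Mb came nearest, with HCC 0.048 lower relative to the rest of the chromosome (SE 0.010, adjusted p = 0.058). That from 30 to 35 Mb had the largest difference, with HCC 0.13 higher (SE 0.034, adjusted p = 0.13). With the mouse as a block, which compares each tumor with its own liver, the difference in the bin from 30 to 35 Mb was −0.0069 and that in the bin from 5 to 10 Mb −0.040, and over all bins the range was −0.040 to 0.033.

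**Figure D4:**
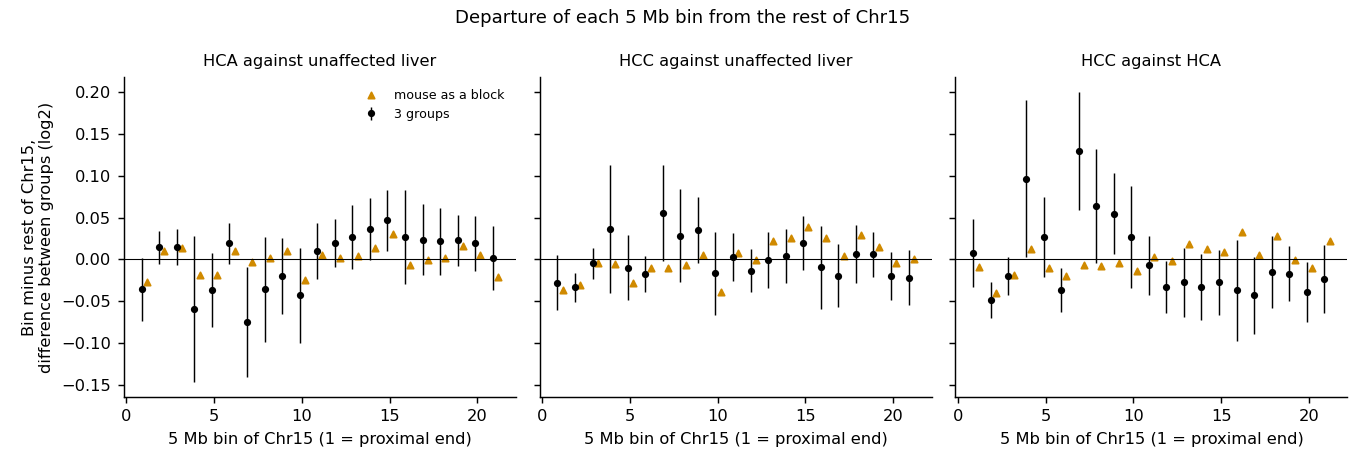
Departure of each bin of Chr15 from the rest of the chromosome, as a difference between groups (log2): HCA against liver, HCC against liver, and HCC against HCA. Circles and bars are estimates and 95% intervals of the fit of 3 groups, and triangles are estimates with the mouse as a block, which all lie between −0.040 and 0.038.

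A tilt along the chromosome did not pass either. The mean of the bins distal to the middle of the probed span (53.3 Mb) minus that of the proximal bins averaged 0.077 in the 4 HCAs (SD 0.0052), 0.024 in the 6 HCCs (SD 0.022) and 0.033 in the 9 livers (SD 0.050). The difference from liver passed neither for HCA nor for HCC (exact permutation adjusted p = 0.43 and 0.89). All 6 HCCs lay below all 4 HCAs (5.26% of the autosomes had such a separation). This did not pass (exact permutation p = 0.0048, adjusted p = 0.090). That p is the smallest these groups allow, so a lone autosome at it cannot pass the adjustment over 19 autosomes, whatever its separation. The direction of this difference turned with the mouse as a block (0.021, limma adjusted p = 0.95). Against their own livers, the HCAs of mice 2430, 5901 and 6199 had tilts of −0.0061, −0.015 and −0.0051, and that of mouse 5884 had 0.056. The steepest was tumor 4 of mouse 6240 with 0.085, and the HCCs of mice 6602, 6487, 6642 and 6565 had 0.047, 0.020, 0.0020 and −0.011. HCC against liver turned from −0.0088 to 0.028 with the mouse as a block (limma adjusted p = 0.40). Tumor 2 of mouse 6240, set against the same liver, had 0.056, and that liver had −0.070 while the tumors themselves had 0.014 and −0.014.

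The unevenness of the profile was measured as the SD of the 21 bins. This averaged 0.060 over the 4 HCAs (SD between tumors 0.0064), 0.036 over the 6 HCCs (SD 0.0084) and 0.045 over the 9 livers (SD 0.016). The difference from liver did not pass for HCA (exact permutation adjusted p = 0.18) or for HCC (exact permutation adjusted p = 0.61). All 6 HCCs lay below all 4 HCAs (5.26% of the autosomes had such a separation, exact permutation p = 0.0048, adjusted p = 0.090). Here too that p is the smallest these groups allow, and a lone autosome at it cannot pass the adjustment. The difference of −0.025 between HCC and HCA passed without the HCC of mouse 6602 (−0.026, exact permutation adjusted p = 0.038). It was −0.0013 with the mouse as a block (limma adjusted p = 0.97), −0.013 with the scan day as a block (limma adjusted p = 0.65) and −0.0080 with normexp (exact permutation adjusted p = 0.90). After subtraction of the own liver the SD of the bins was 0.019 to 0.045 in the HCAs and 0.021 to 0.059 in the HCCs. In the same tumors the median SD of the other 18 autosomes was 0.020 to 0.041 and 0.020 to 0.048. Counted from the most even of the 19 autosomes, Chr15 held ranks 7 to 18 with a median of 13.5, so it was not among the most even chromosomes of these tumors.

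The best single break of each tumor, fitted to windows of 20 probes of the difference from the own liver, was small on Chr15. Its size was at most 0.099, in tumor 4 of mouse 6240, where the part beyond 73298422 was higher. The same position was the best break in tumor 2 of mouse 6240 with 0.064, and these differences share the liver of mouse 6240. By the size of this break Chr15 held rank 2 of the 19 autosomes in mouse 5901 (0.042, against 0.049 for the largest of another autosome), rank 3 in tumor 4 of mouse 6240 (against 0.112) and rank 4 in tumor 2 of mouse 6240 (against 0.075), mouse 2430 and mouse 6565. In the other 5 tumors it held ranks 7 to 16. The largest step of any other autosome was 0.368, on Chr2 in the HCC of mouse 6487.

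At finer scale, Chr15 was divided into 458 windows of 20 probes with a median length of 159 kb. All 458 windows were above the own liver in each of the 7 gained tumors. These tumors were picked by their high Chr15 mean, so this count was largely set by that choice. In all 4 HCAs at once, 100% of the Chr15 windows and 24.7% of all autosomal windows were above the own liver. In the other HCCs the share was 68.1% in tumor 2 of mouse 6240, 70.3% in mouse 6487 and 52.6% in mouse 6565. Single windows departed from the rest of the chromosome by more than 0.3 in 3 windows of mouse 5884, in 3 of mouse 6602, in 2 of tumor 4 of mouse 6240 and in 1 of mouse 2430, and in none of the other 6 tumors. Over the 10 tumors this was 0.197% of the Chr15 windows and 0.503% of all autosomal windows. The SD of the windows along Chr15 was 0.062 to 0.108 over the 10 tumors, next to 0.062 to 0.105 for the median of the other autosomes.

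By the mean over the 10 tumors, the highest window was chr15:74095889-74369891, at 0.109 ± 0.158 (SD, 10 tumors of 9 mice) above the rest of the chromosome. The window chr15:74488145-74570959 followed with 0.108 ± 0.118. The SD of the 9 livers was 0.151 at the first of these and 0.086 at the second. The next 3 were chr15:87669415-88147240 with 0.092, chr15:95260409-95483608 with 0.087 and chr15:92295338-92612955 with 0.084. The lowest window was chr15:98544790-98624285, at −0.113 ± 0.086, followed by chr15:99689711-99830869 with −0.089, chr15:4963339-5130338 with −0.084, chr15:21238940-21401113 with −0.084 and chr15:100858786-100983155 with −0.081. These are the extremes of 458 windows and were not tested. The 10 differences are not independent, because tumors 4 and 2 of mouse 6240 share a liver. The Chr15 profiles of their differences correlated at 0.98, against a median of 0.026 for pairs of tumors of different mice. In the highest window these tumors stood at 0.323 and 0.231.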

How the data were processed

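DNA of 19 samples was hybridized with a control on Agilent mouse CGH arrays, 1 per sample. The deposited files hold, per spot, the log10 ratio of Cy5 (sample) over Cy3 (control) from signals that the authors' scanner software (Feature Extraction 10.5.1.1, mm9) had background-subtracted, detrended and dye-normalized linearly, without lowess, and the spot intensities in both channels as deposited by the authors. The deposited table of the series holds the same log10 ratios within 5e-10. Ratios were converted to log2. Outlier spots (at most 0.29% of Chr15 spots) were left out, spots of a probe averaged, and arrays centred on the autosomal median. Bins were 5 Mb with at least 20 probes.

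Differences between groups were tested by exact two-sided permutation with Benjamini-Hochberg adjustment over 19 autosomes, and bins by limma 3.58.1 (R 4.3.3) on all 19 arrays with adjustment over 502 bins, at 0.05. Scripts were tested on simulated data. The mouse pairs tumor and liver by the labels. The correlation of their deviations over all bins was −0.052 to 0.28, above 0.1 in 6 of 10 pairs, and the mouse as a block was an alternative. Over the Chr15 bins alone this correlation was 0.66, 0.47, 0.075 and 0.28 in the HCAs of mice 2430, 5884, 5901 and 6199. In the HCCs it ran from −0.10 to 0.84. Nothing says whether samples were extracted separately, so p-values measure the spread between these samples. The members, bins and lists were chosen with earlier results of these data known. Named bins were the first, the last, and the highest and lowest by mean tumor minus own liver, and named windows the 5 highest and 5 lowest. Alternatives changed background correction, normalization, centring, probe filters, bin size, test, block and samples. The authors' calls of events were not used here.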

Additional observations from a re-analysis of the deposited data

How the results depend on the processing

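The Chr15 gain of HCA over liver passed under all 20 alternatives and with each sample left out (0.20 to 0.40, and 0.34 to 0.41), and all its bins passed under each. For HCC over liver, the mean passed under 17 of 20 alternatives. It did not with normexp background correction (0.131) or with the mouse as a replicate block (0.172). Nor did it in female mice (0.259), where the unadjusted exact permutation p was the smallest possible. The mean passed with each sample left out (0.156 to 0.224). HCC against HCA passed with limma without the block and with the Tukey comparison of the paper (both −0.177). The count of HCC bins above liver was 0 with normexp and in female mice, 3 with the mouse as a block, 11 with the scan day as a block, and 10 to 21 with 1 sample left out.

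The count of bins lower in HCC than HCA was 0 with normexp, without background correction or centring, in female mice, with only both tumor groups in the fit, with the mouse as a block and with the exact permutation test per bin, 1 with the scan day as a block and 6 with centring on all probes. It was 0 to 17 with 1 sample left out. Bins that departed from the rest of Chr15 stayed at 0 for HCA and HCC against liver under every alternative run. For HCC against HCA 1 bin passed with bins of 2.5 Mb and with only both groups in the fit, and 0 to 2 with 1 sample left out.

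The distal minus proximal difference between HCC and liver turned its sign without probes that varied between livers (0.0032), with the mouse as a block (0.028) and with the scan day as a block (0.013), and that between HCC and HCA with the mouse as a block (0.021). The SD of the bins in HCC against liver turned with the mouse as a block (0.0010). In HCC against HCA that SD passed without the HCC of mouse 6602 (range −0.027 to −0.022 with 1 sample left out). The HCA difference from own liver was smaller with normexp (0.271) and without background correction (0.217). The cause was not tested. The median Chr15 signal over background was lower in Cy5 than in Cy3 on most arrays, but not on those of mouse 6240 or the liver of mouse 6642. Whether this bears on these values or on the precision of single probes was not tested.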
